A study of Mus musculus with 8 samples.

Results

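The 10 immediate early genes Fos, Fosb, Junb, Egr1, Dusp1, Ier2, Ier3, Nr4a1, Arc and Btg2 were followed in mouse lumbar dorsal root ganglia after spinal nerve ligation, as the rows of the count table whose Ensembl IDs carry these symbols. All 10 of them were found among the 53801 genes of the table, and all 10 passed the filter on low counts. The ganglia came from male C57BL/6J mice, per the labels, with the left L4 spinal nerve tightly tied, and ganglia L3 to L5 were collected, and the libraries of the injured side therefore include ganglia of nerves that were left intact. The groups were the injured (left) side at days 1, 3 and 7 after ligation, the uninjured (contralateral, right) side of the same mice at the same days, and both sides, left and right, of another pool labelled no injury. Each of the 8 libraries pooled 3 mice, and each side and day had 1 library. The labels describe a sham operation, but they name no library as sham.

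Immediate early genes are transcribed within minutes of a stimulus, without new protein synthesis, when kinases such as ERK and CaMK phosphorylate factors already bound at their promoters. Many of their mRNAs are short-lived. In sensory neurons and in the spinal cord they are widely used as marks of recent activity, and members of the AP-1 family also take part in the lasting response of a neuron to axon injury. The members fall into DNA-binding factors (Fos, Fosb and Junb of AP-1, the zinc finger factor Egr1 and the orphan nuclear receptor Nr4a1), a brake on MAP kinases (Dusp1, a phosphatase), growth and survival regulators (Btg2, Ier2 and Ier3) and Arc, a cytoskeleton-associated protein of neurons that acts in synaptic plasticity.

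The upstream 250 bases of 4 members are shown because they carry the core of the CRE. Through this element calcium and cyclic AMP signals act. Among the 4 are Fos and Fosb, close relatives. Their side differences had opposite signs here, but neither was called, and a link to these sequences was not tested. RefSeq sequences (GRCm38.p6) matched 7 of the 10 members, with none for Egr1, Ier2 and Arc. Capitals mark the CRE core TGACG on either strand, the full CRE TGACGTCA, which contains a core on each strand, and the TATA box TATAAA. Fos is at chr12:85473640-85473889, plus strand, Fosb at chr7:19310046-19310295, minus strand, Dusp1 at chr17:26508473-26508722, minus strand, and Nr4a1 at chr15:101266596-101266845, plus strand. Each is written 5′ to 3′ on the gene's own strand and ends at the base before the start site. For Dusp1 and Nr4a1 this RefSeq start site lies well inside the wider gene span given below, which is from GENCODE M21.
Fos: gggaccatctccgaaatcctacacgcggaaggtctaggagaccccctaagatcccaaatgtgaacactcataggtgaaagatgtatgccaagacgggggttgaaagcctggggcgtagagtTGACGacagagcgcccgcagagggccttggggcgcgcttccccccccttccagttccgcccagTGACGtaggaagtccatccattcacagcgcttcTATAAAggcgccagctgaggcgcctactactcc
Fosb: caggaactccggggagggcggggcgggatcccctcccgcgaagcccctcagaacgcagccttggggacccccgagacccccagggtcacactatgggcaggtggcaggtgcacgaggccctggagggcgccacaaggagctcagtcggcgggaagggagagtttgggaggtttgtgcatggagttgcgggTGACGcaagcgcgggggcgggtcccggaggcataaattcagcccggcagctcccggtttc
Dusp1: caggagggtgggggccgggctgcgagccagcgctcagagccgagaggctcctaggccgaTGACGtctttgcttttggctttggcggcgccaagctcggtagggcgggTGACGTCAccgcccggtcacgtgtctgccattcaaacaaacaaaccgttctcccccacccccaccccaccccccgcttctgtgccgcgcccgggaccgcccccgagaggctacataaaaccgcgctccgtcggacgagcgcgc
Nr4a1: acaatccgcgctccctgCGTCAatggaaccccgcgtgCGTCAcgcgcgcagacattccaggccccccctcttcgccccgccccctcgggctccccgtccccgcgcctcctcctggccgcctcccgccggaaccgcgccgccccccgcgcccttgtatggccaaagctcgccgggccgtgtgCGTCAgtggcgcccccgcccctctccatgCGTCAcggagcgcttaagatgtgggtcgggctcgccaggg

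A CRE core stood in 6 of the 7 members with a sequence, against 17.8% of all 32851 promoter windows of the same length. Nr4a1 had 4 of them, all on the reverse strand, Fos had 2, one 66 bases before the start site, and Fosb and Junb had 1 each. A full CRE was present in 2 of the 7, Dusp1 and Btg2, against 1.55% of all windows. The TATA box, in 12.4% of all windows, was found in Fos alone of the 7. The AP-1 site TGANTCA (6.75% of windows) and the CArG box bound by the serum response factor (1.47%) were in none of the 7 windows. These are matches of letters and not measured sites.

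The libraries held from 20488115 to 21652688 counted reads. The 10 sensory neuron markers were detected in every library and summed to between 16045.6 and 18126.2 CPM (the reads of a gene scaled to a common library total). The pool labelled no injury stood apart in sex and in muscle RNA. Xist, an RNA of the inactive X chromosome, had 4931 and 4129 reads in its libraries, against at most 3 in any operated one. Kdm5d, a gene of the Y chromosome, had 0 reads in that pool, although all mice were male per the labels. The 6 skeletal muscle markers summed to 143 and 1021 CPM there, against 14.3 to 110.5 CPM in the operated libraries. The 10 neutrophil and myeloid precursor markers summed to 556 CPM in the contralateral library of day 1 and 292 CPM in the left library labelled no injury, against 34.1 to 102 CPM elsewhere. All 10 of these markers were detected in all 8 libraries, as were all 6 muscle markers. In whole ganglia fewer cells of a type and less RNA per cell cannot be told apart.

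**Figure D1:**
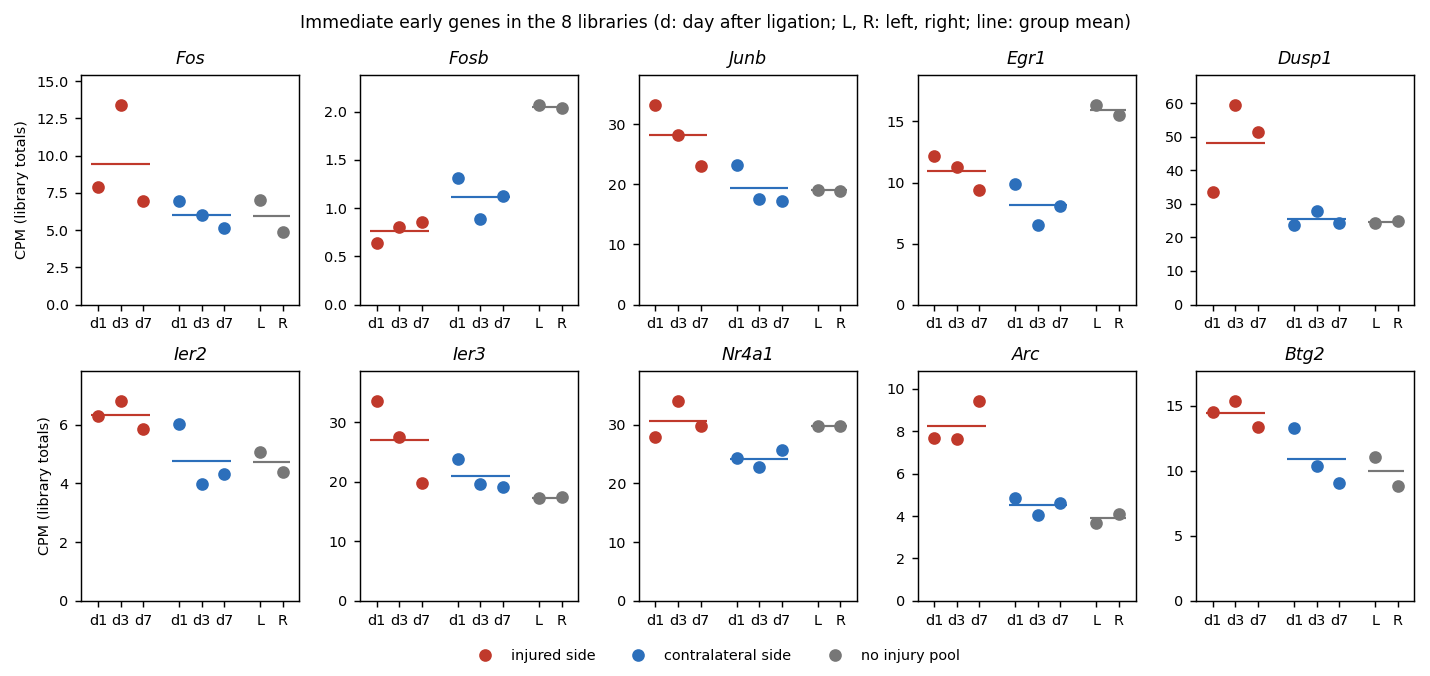
Level of each of the 10 immediate early genes in the 8 libraries (CPM on the vertical axis, which starts at 0), with the 3 injured libraries at left, the 3 contralateral libraries in the middle and the 2 libraries labelled no injury at right; points are libraries and lines group means. Dusp1 and Arc lie higher in every injured library than in any other library, as does Btg2 by a margin that turns with TMM scaling, while Fosb and Egr1 are highest in the libraries labelled no injury.

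The levels of the 10 genes without injury spanned a wide range. Scaled by the length of their exons, Ier3 was the most abundant without injury, at 15.3 TMM-normalised CPM per kilobase, and Fosb the least, at 0.328. Nr4a1 (8.48), Junb (8.24) and Dusp1 (7.40) followed Ier3 on this scale. Btg2 (3.62), Egr1 (3.56), Ier2 (3.10), Fos (2.51) and Arc (1.27) lay below. The left and right values of Btg2 overlapped with those of Egr1, and those of Ier2 with those of Fos, so these neighbours were not separated. The other neighbours were, but the left and right side of a single pool are all the spread there is. Fosb rested on only 13 to 44 reads per library, against 76 to 1260 for the other 9 genes.

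The first comparison, between the ganglia of the injured and the contralateral side, took each pool as its own control. Of the 10 genes, 6 rose and 0 fell at an adjusted p under 0.05 (edgeR quasi-likelihood test within pools), namely Dusp1, Arc, Junb, Egr1, Nr4a1 and Ier3. Of all 16244 genes tested, 10.1% were called higher and 8.02% lower. The median log2 difference of the 10 genes was 0.42, against 0.02 over all genes tested. Fos, Ier2 and Btg2 had higher values on the injured side in each pool without passing the test, and Fosb had a lower one. Of all tested genes, 28.4% had a higher value in all 3 operated pools and 25.3% a lower one. Apart from Dusp1 and Arc the differences were modest, between 1.26-fold and 1.51-fold for the 7 other genes with a positive value. Dusp1, Junb and Arc were the 3 called by DESeq2, which called 1357 genes higher and 1181 lower in all, against 1644 and 1302 by edgeR. With edgeR the count of the 10 genes moved together with that of all genes. It was 3 without the pool of day 7 (475 higher and 156 lower in all), 3 without that of day 3 (651 and 334), 3 without that labelled no injury (763 and 449) and 8 without that of day 1 (2382 and 2287). With side as a further term 0 of the 10 were called, but only 6 of all 16244 genes were called higher and 0 lower, so this count says nothing particular about the 10.

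Among the DNA-binding factors, Junb, a dimerisation partner of the Fos proteins (chromosome 8, 84974484 to 84978718, GRCm38), had 33.2, 28.1 and 23.0 CPM in the injured libraries of days 1, 3 and 7. On the contralateral side it had 23.2, 17.6 and 17.2 CPM, and in the left and right library labelled no injury 19.0 and 18.9 CPM. Each injured library was above the contralateral library of its own day, while the ranges overlapped because the injured level of day 7 was just under that of the contralateral side at day 1. Junb rose by 0.54 ± 0.07 (log2, SE, 3 injured pools; edgeR adjusted p = 0.0041), and its side ratios of 1.46, 1.55 and 1.33 stood against 0.995 left over right in the pool labelled no injury. The exons of Junb overlap those of Prdx2 on the opposite strand over 173 bases, and no source used here gives the strand setting. Prdx2 itself had 252 to 294 CPM, well above Junb, and a log2 difference of 0.03 ± 0.06 (SE). Its part in the Junb counts was not tested.

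Fos, the classical activity marker (chromosome 12, 85473890 to 85477273), reached 13.4 CPM on the injured side at day 3, with 7.91 CPM at day 1 and 6.96 CPM at day 7. The contralateral side had 6.95, 6.03 and 5.13 CPM at days 1, 3 and 7, and the libraries labelled no injury 6.99 CPM on the left and 4.85 CPM on the right. The lowest injured and the highest contralateral value were thus about equal, and only day 3 stood clear. Fos had a log2 difference of 0.60 ± 0.21 (95% interval 0.11 to 1.08; edgeR adjusted p = 0.0875) and was not called. Its left library exceeded its right one 1.42-fold without any injury (interval 1.10 to 1.85, counting error only), against 1.16-fold at day 1, 2.15-fold at day 3 and 1.35-fold at day 7. With side as a further term the log2 value of Fos was 0.08, and without the pool of day 3 it was 0.32.

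Fosb, which can replace Fos in AP-1 and has a long-lived splice form (chromosome 7, 19302696 to 19310051), ran the other way. It had 0.635, 0.804 and 0.852 CPM in the injured libraries of days 1, 3 and 7, and 1.31, 0.888 and 1.13 CPM in those of the contralateral side. In the libraries labelled no injury it had 2.07 and 2.03 CPM. Every injured library was below every contralateral library, a pattern shared by 15.7% of tested genes, and every contralateral library was below both libraries labelled no injury. The log2 difference was -0.53 ± 0.28 (95% interval -1.18 to 0.11; edgeR adjusted p = 0.217), so a fall on the injured side was not shown at these counts. The file gives 1 count per gene, so the splice forms of Fosb were not separated.

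Egr1, a zinc finger factor that couples activity to lasting expression changes (chromosome 18, 34859823 to 34864984), had 12.2, 11.3 and 9.37 CPM in the injured libraries of days 1, 3 and 7. It had 9.91, 6.55 and 8.05 CPM on the contralateral side, and 16.4 and 15.6 CPM in the libraries labelled no injury. Within each pool the injured side was above its own contralateral side, yet all 6 operated libraries were below both libraries labelled no injury, as for 11.7% of tested genes. Egr1 rose on the injured side by 0.43 ± 0.12 (log2, SE; edgeR adjusted p = 0.0446). Without the pool as a block, the levels of the libraries labelled no injury also enter the uninjured reference. The value of Egr1 was then -0.04, and the call was lost.

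Nr4a1, an orphan nuclear receptor induced by growth factors and depolarisation (chromosome 15, 101254269 to 101274795), had 27.9, 34.1 and 29.8 CPM in the injured libraries of days 1, 3 and 7. The contralateral side had 24.3, 22.8 and 25.7 CPM, and the libraries labelled no injury had 29.8 and 29.7 CPM. All injured libraries were above all contralateral ones, as for 14.7% of tested genes, but they lay around the level labelled no injury. Nr4a1 rose within pools by 0.33 ± 0.08 (log2, SE; edgeR adjusted p = 0.0293). Its value against the no injury pool was 0.04.

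Dusp1 and Arc had the largest fitted differences of the 10 genes. Dusp1, a phosphatase that switches off p38, JNK and ERK (chromosome 17, 26505590 to 26562128), had 33.7, 59.6 and 51.3 CPM in the injured libraries of days 1, 3 and 7. It had 23.8, 28.0 and 24.3 CPM on the contralateral side and 24.3 and 24.8 CPM in the libraries labelled no injury. The 3 injured libraries were above the 5 other libraries, as for 11.5% of tested genes, and the contralateral side stayed at the level labelled no injury. Dusp1 rose 1.85-fold (log2 0.89 ± 0.11, SE; edgeR adjusted p = 0.0038). Its side ratios were 1.44, 2.07 and 2.10 at the 3 days, against 0.972 in the pool labelled no injury. The 10 macrophage markers summed to 66.6, 311 and 298 CPM in the injured libraries of days 1, 3 and 7 and to 61.9, 88.4 and 126 CPM on the contralateral side. Their part in the Dusp1 values was not tested.

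Arc, the one member whose expression is largely restricted to neurons in the nervous system (chromosome 15, 74669083 to 74672570), had 7.66, 7.61 and 9.42 CPM in the injured libraries of days 1, 3 and 7. The contralateral side had 4.84, 4.07 and 4.61 CPM, and the libraries labelled no injury 3.66 and 4.11 CPM. All injured libraries were above all others, as for 11.5% of tested genes. Arc rose 1.82-fold (log2 0.86 ± 0.13, SE; edgeR adjusted p = 0.0072), with side ratios of 1.61, 1.80 and 2.01, against 0.885 in the pool labelled no injury. Over the same libraries 3 of the 10 sensory neuron markers were called lower and 0 higher on the injured side, with a median log2 value of -0.25. Of all tested genes 8.02% were called lower and 10.1% higher. The part of neuron content in the Arc values was not tested.

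The growth and survival regulators had smaller values. Ier3, a stress-induced survival factor (chromosome 17, 35821684 to 35822923), had 33.5, 27.5 and 19.7 CPM in the injured libraries of days 1, 3 and 7, while the contralateral libraries had 23.9, 19.6 and 19.2 CPM. It had 17.3 and 17.4 CPM in the libraries labelled no injury. Both operated sides were above that level, most at day 1, and at day 7 the sides were about equal (ratio 1.03). Ier3 rose by 0.34 ± 0.10 (log2, SE; edgeR adjusted p = 0.0483). Btg2, an antiproliferative cofactor (chromosome 1, 134075170 to 134079120), had 14.5, 15.4 and 13.35 CPM in the injured libraries of days 1, 3 and 7. The contralateral side had 13.29, 10.3 and 9.08 CPM, and the libraries labelled no injury 11.04 and 8.87 CPM. The lowest injured library thus exceeded the highest contralateral one only narrowly (282 reads against 283), and with TMM scaling it lay below it (13.25 against 13.30). Btg2 had a log2 difference of 0.41 ± 0.12 and was not called (edgeR adjusted p = 0.0515), and its left library without injury was 1.23-fold its right one. Ier2, a nuclear protein of the early response (chromosome 8, 84661331 to 84662852), had 6.30, 6.81 and 5.87 CPM in the injured libraries of days 1, 3 and 7, against 6.01, 3.97 and 4.33 CPM contralaterally and 5.06 and 4.39 CPM without injury. Its log2 difference of 0.42 ± 0.16 was not called (edgeR adjusted p = 0.107).

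**Figure D2:**
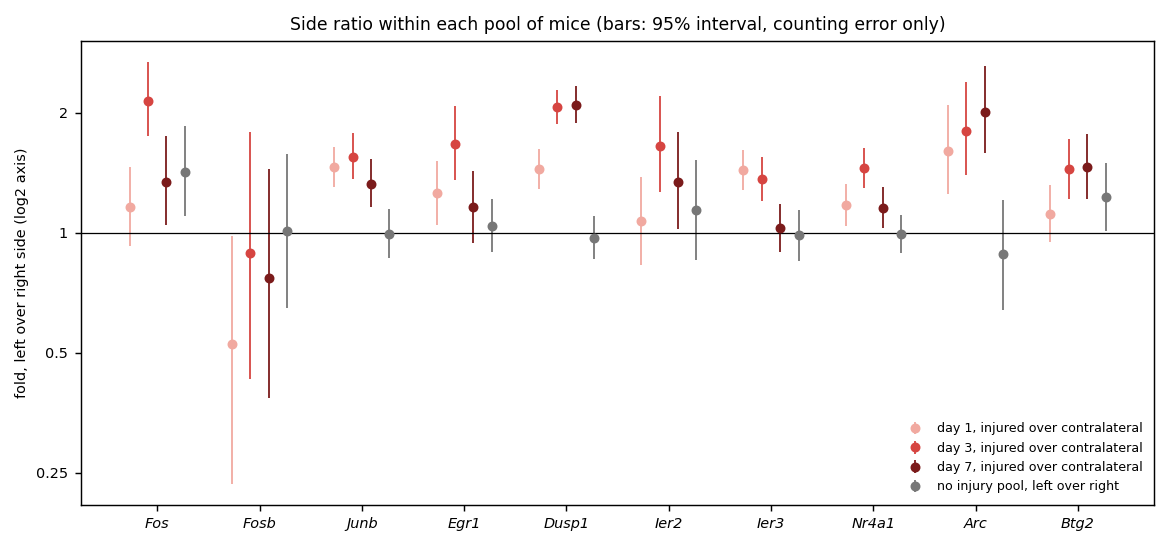
Ratio of the left to the right side within each pool of mice for the 10 genes (log2 axis), with the day 1, day 3 and day 7 pools, where left is the injured side, and the pool labelled no injury; points are ratios of TMM-normalised CPM and bars 95% intervals for counting error only. In each operated pool 9 genes lie above 1 and Fosb below, and the ratios of the pool labelled no injury are between 0.885 for Arc and 1.42 for Fos.

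The 3 days were next set side by side, with 1 library per side and day and hence no test at a single day. At day 1 the injured side was higher for 9 of the 10 genes, against 52.4% of tested genes, and by at least 1.5-fold for 1 of them, Arc, against 5.96%. Fosb was at least 1.5-fold lower, as were 6.00% of tested genes. At day 3 the injured side was again higher for 9, against 52.0%, and 6 passed 1.5-fold, against 15.4%, while 0 were as far lower (7.84%). These were Fos, Junb, Egr1, Dusp1, Ier2 and Arc. Marker sums of several other cell types were also higher in the injured library of day 3 than in its contralateral one. The 6 endothelial markers summed to 165 against 89.4 CPM, the 7 erythroid markers to 943 against 356 CPM and the 7 Schwann cell markers to 7760 against 4666 CPM. The 6 satellite glia markers summed to 1058 against 849 CPM and the 10 macrophage markers to 311 against 88.4 CPM. All markers of these lists were detected in both libraries, and their part in the ratios of day 3 was not tested. At day 7 it was higher for 9, against 50.8%, with 2 past 1.5-fold, Dusp1 and Arc, against 9.26%, and 0 as far lower (7.17%). In the pool labelled no injury the left side was higher for 5 of the 10, against 51.7%, and 0 were 1.5-fold higher (4.10%) or lower (2.46%). The median log2 ratio of the 10 genes was 0.28, 0.68 and 0.42 at days 1, 3 and 7 and 0.00 without injury.

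No member's side difference changed with the logarithm of the day at an adjusted p under 0.05 by edgeR, nor did any of the 16244 genes tested (0% higher and 0% lower). At an unadjusted p under 0.05 there were 596 and 703 such genes, and DESeq2 called 37 and 12. Of the members, 2 had an unadjusted p under 0.05, Dusp1 with a growing difference (0.20 ± 0.06 log2 per doubling of the day, adjusted p = 0.488) and Ier3 with a shrinking one (-0.16 ± 0.06, adjusted p = 0.604). Without the pool of day 7, when the trend rests on days 1 and 3, Dusp1 was called at 0.32 (edgeR adjusted p = 0.0448), as 1 of 644 genes called higher, with 570 called lower. On the injured side itself 5 of the 10 genes were highest at day 3, against 34.8% of tested genes. Junb, Egr1 and Ier3 declined over the 3 days there, as did 17.3% of tested genes. Contralaterally 4 of the 10 declined, Junb and Ier3 among them, against 15.8% of tested genes. On the contralateral side 8 of the 10 were highest at day 1, against 36.2% of tested genes. That is the library with the high neutrophil marker sum of 556 CPM, whose part in these levels was not tested.

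The contralateral side was then set against the pool labelled no injury, to see whether the 10 genes were at baseline in uninjured ganglia of operated mice. In the same comparison the other AP-1 subunits, given below, had a median log2 value of 0.73, and the 30 other immediate early genes 0.04. None of the 10 genes was called by edgeR, with 0.125% of 16747 tested genes called higher and 0.155% lower, and none by DESeq2, which called 87 genes higher and 75 lower. At an unadjusted p under 0.05, 0 of the 10 were higher and 3 lower, Egr1, Nr4a1 and Fosb, while 687 of all genes tested were higher and 793 lower. Egr1 had the lowest p, with a log2 difference of -0.96 ± 0.21 (95% interval -1.44 to -0.48; edgeR adjusted p = 0.182), and was called lower without the contralateral library of day 1 (-1.12), when calls over all genes went up to 447 higher and 507 lower. Fosb had -0.88 ± 0.36 and Nr4a1 -0.29 ± 0.10, with adjusted p of 0.537 and 0.431 (edgeR). All contralateral libraries were below both libraries labelled no injury for these 3 genes, as for 19.5% of tested genes, and above them for Ier3, as for 17.9%. Fos, Junb, Dusp1 and Ier2 had values between 0.02 and 0.06, with 95% intervals reaching at most 0.64 in either direction. This comparison is between pools whose sex and muscle RNA differ as given above, and their part in the Egr1, Fosb and Nr4a1 values cannot be told apart from that of the operation.

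**Figure D3:**
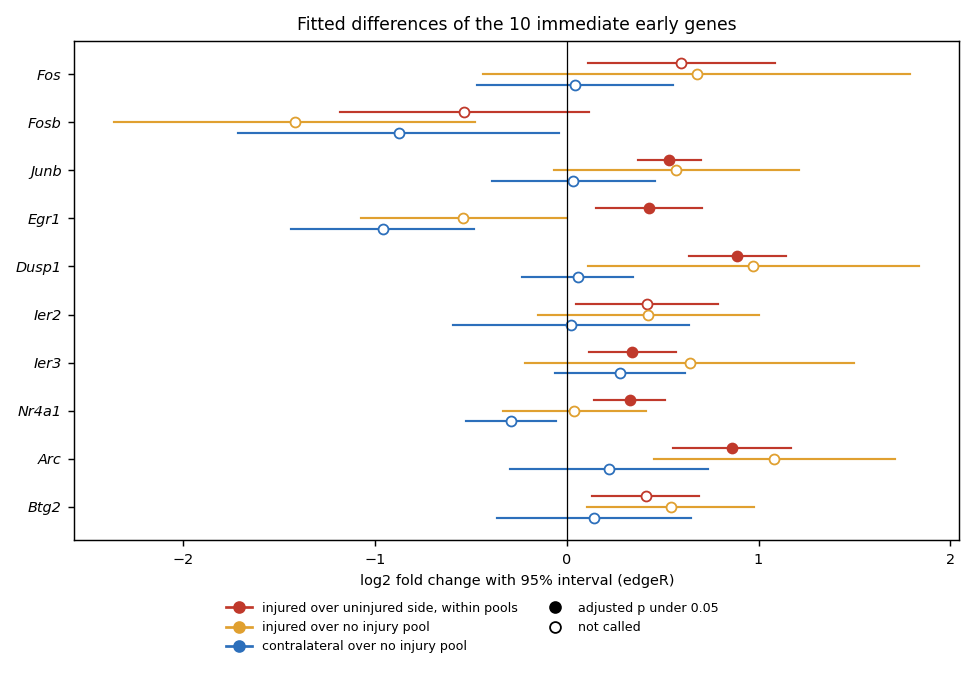
Fitted log2 fold changes of the 10 genes with 95% intervals (edgeR) for the injured over the uninjured side within pools, the injured side over the pool labelled no injury, and the contralateral side over that pool; filled points have an adjusted p under 0.05. Within pools 6 genes are called, and in both comparisons with the pool labelled no injury no gene is.

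Against the same pool the injured side gave a wider spread of values. None of the 10 was called by edgeR (0.112% of 16924 tested genes higher, 0.0236% lower), 3 were higher and 2 lower at an unadjusted p under 0.05 (1306 and 1050 of all genes tested), and DESeq2 called 1, Arc, among 494 genes higher and 167 lower. The values were 1.08 ± 0.24 for Arc, 0.97 ± 0.33 for Dusp1 and 0.54 ± 0.17 for Btg2 on the higher side, and -1.42 ± 0.36 for Fosb and -0.54 ± 0.21 for Egr1 on the lower (log2, SE). For 6 genes all injured libraries were above both libraries labelled no injury, against 24.0% of tested genes, and for 2, Fosb and Egr1, all were below, against 26.0%. Without the injured library of day 1, Dusp1 (1.16) and Arc (1.12) were called higher, among 1630 genes called higher and 1518 lower.

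The same libraries held further genes of the response, taken from lists by role. Of 8 other AP-1 subunits tested, 6 rose and 0 fell within pools, with a median log2 value of 1.03. Jun, the partner of Fos that drives the axotomy response, had 300.5, 274 and 274 CPM in the injured libraries of days 1, 3 and 7, against 150 (day 1), 143 (day 3) and 122 CPM (day 7) on the contralateral side and 110.3 and 111 CPM without injury. It rose by 1.03 ± 0.06 (log2, SE). The stress-induced repressor Atf3 rose by 2.09 ± 0.12, Fosl2 by 1.02 ± 0.13 and the small Maf factor Mafk by 0.62 ± 0.08. Batf was too scarce to test.

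Of the 6 other EGR and NR4A factors and NAB corepressors tested, 2 rose and 0 fell, with a median of 0.41. These were Nr4a2, a relative of Nr4a1 (0.50 ± 0.11), and Egr3, a target of the same signals as Egr1 (0.70 ± 0.17). Egr3 had 4.34, 5.72 and 6.30 CPM in the injured libraries of days 1, 3 and 7 and 2.35, 3.74 and 4.05 CPM contralaterally, against 6.51 and 4.85 CPM in the libraries labelled no injury. Like Egr1 it thus had a lower level in each contralateral library than in either library labelled no injury, as for 19.5% of tested genes. Egr2 did not, with 8.08, 14.1 and 16.0 CPM contralaterally against 11.5 and 18.6 CPM in the libraries labelled no injury. Egr4 was too scarce to test. Of 30 other immediate early genes 18 rose and 0 fell, with a median of 0.45. The largest among those named by the lowest p were Gadd45g, a stress sensor (1.32 ± 0.10), Csrnp1, a nuclear protein of the early response (1.30 ± 0.12), Socs3, an inhibitor of cytokine signalling (1.26 ± 0.08), and Klf6, a zinc finger factor (0.86 ± 0.09).

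Activity-regulated neuronal genes were divided. Of 13 tested, 4 rose and 2 fell, with a median of 0.17. Crem (0.80 ± 0.10), which encodes a CRE-binding repressor and activator, the neurotrophin gene Bdnf (0.57 ± 0.09) and the cell cycle inhibitor Cdkn1a (1.13 ± 0.15) rose. Contralateral over no injury, Cdkn1a had a log2 value of 0.91 ± 0.10 (edgeR adjusted p = 0.0107), as 1 of 21 genes called higher. Crem had 0.57 and Bdnf 0.12, neither of them called, with a median of 0.23 for the 13. Nrn1, a neurite growth gene, fell by 0.74 on the log2 scale. Npas4, the early gene most tied to calcium entry in neurons, was at most 0.282 CPM in every library and was not tested. Of 15 MAP kinase feedback inhibitors 4 rose and 2 fell, with a median of 0.09. Here Dusp7 (0.57 ± 0.08), Dusp6 (0.31 ± 0.07) and Dusp16 (0.26 ± 0.07), all phosphatases of MAP kinases, rose. Spry4 fell by 0.37 on the log2 scale, and Dusp5, also a phosphatase of MAP kinases, had -0.55 ± 0.14. Of 17 upstream kinases and factors 5 rose and 1 fell, with a median of 0.14. Those that rose included the p38 gene Mapk14 (0.41 ± 0.08), the ribosomal S6 kinase gene Rps6ka1 (0.61 ± 0.13), the SRF cofactor gene Mrtfa (0.29 ± 0.07) and Creb1 (0.21 ± 0.05). Rps6ka3, a relative of Rps6ka1, was the one that fell (-0.26 ± 0.07). Of 10 heat shock genes, which mark stress of handling as well as of injury, 1 rose, Hspb1 (0.70 ± 0.10), and 0 fell, with a median of -0.04. Apart from that of Cdkn1a against the pool labelled no injury, all these calls are from edgeR within pools at an adjusted p under 0.05.

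**Figure D4:**
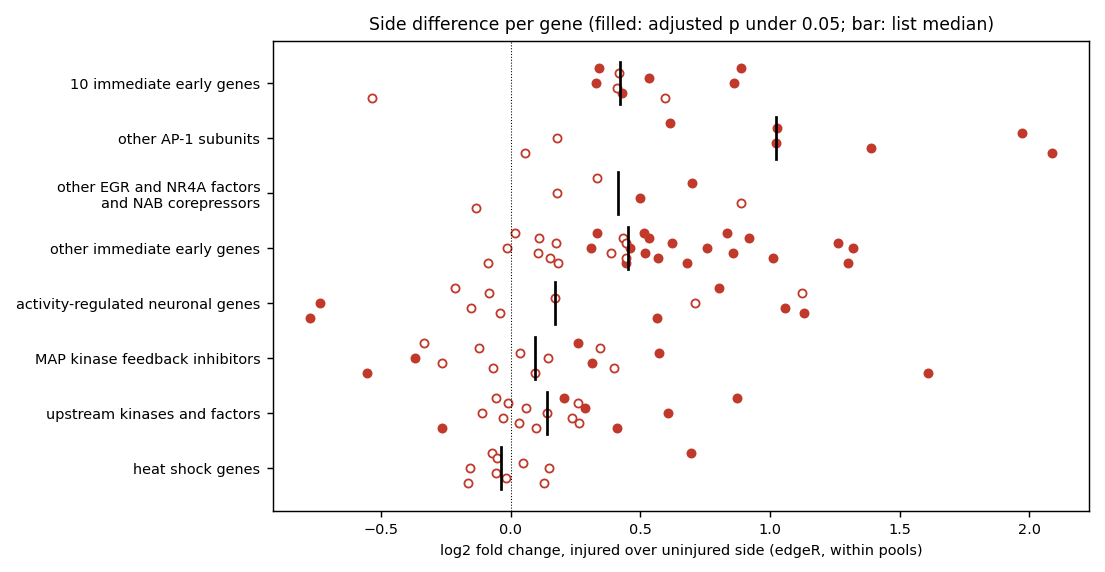
Log2 fold change of the injured over the uninjured side within pools (edgeR) for each tested gene of the 10 immediate early genes and 7 related lists; filled points have an adjusted p under 0.05 and bars are list medians. The other AP-1 subunits have a median of 1.03, the 10 immediate early genes of 0.42 and the heat shock genes of -0.04.

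How far the 10 genes moved together was described by their correlation across the 8 libraries, with no test, since libraries of a pool share mice and libraries of a side share the injury. Each gene's log2 CPM was set against the mean standardised profile of the other 9. Pearson's r was 0.92 for Ier2, 0.86 for Junb, 0.83 for Btg2 and 0.79 for Fos. It was between 0.61 and 0.67 for Ier3, Nr4a1, Dusp1 and Arc, 0.26 for Egr1 and -0.55 for Fosb. Of all tested protein-coding genes outside the 10, the nearest to their mean profile were Ssr3 (r = 0.98), H2-D1 (0.98), Igfbp7 (0.96), Rcl1 (0.96) and Tbl1xr1 (0.96). The nearest to Fos were Entpd1 (0.98), Bola2 (0.96) and Ch25h (0.95). Ch25h, an oxysterol-producing enzyme gene, had 3.88 CPM on the injured side at day 3, against 1.36 CPM on the contralateral side, the same single library in which Fos was highest.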

How the data were processed

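RNA of 8 libraries was sequenced, each from ganglia of 3 pooled mice. The authors deposited read counts, as whole numbers, for 53801 Ensembl IDs. The submitters' processing notes name cutadapt 1.16, STAR 2.5.4a, featureCounts 1.6.3, DESeq2 and GRCm38, with no roles. How strand and multiply mapping reads were treated, and which annotation was used, the sources here do not say. Symbols, positions and exon lengths were taken from GENCODE M21, where 53620 of the IDs were found.

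Tests used quasi-likelihood fits in edgeR 4.0.16 (R 4.3.3) with TMM, robust shrinkage and filterByExpr (minimum count 10). P-values were adjusted by Benjamini-Hochberg over all tested genes (threshold 0.05). For the injury effect all 8 libraries were fitted with the pool as a block, because the design text makes mice their own controls (3 residual degrees of freedom). Replicates of the injured state are thus pools of different days. The p-values measure the spread of the side difference between them, together with the left to right difference of the pool labelled no injury. Side deviations within the pools of days 1, 3 and 7 had correlations of 0.25, -0.06 and 0.36. The trend used the injured state times log2 day (2 residual degrees of freedom). Against the pool labelled no injury, its sides were summed to 1 sample that is taken to vary as the rest do (2 residual degrees of freedom). Side ratios came from TMM log2 CPM (prior count 2). Their 95% intervals are exact binomial and hold counting error alone, reads having no molecular identifiers. The most similar pair of libraries had a chi-square per gene of 7.86, above sampling noise. DESeq2 1.42.0 was an alternative. Scripts were tested on simulated data.

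The members, lists and tests were chosen with earlier results of these data known. All 10 members are named, with up to 4 called genes of lowest p per list and the 5 and 3 genes nearest in profile to the members' mean and to Fos. Batf, Dusp5, Egr2, Egr4, Npas4, Prdx2 and Rps6ka3 were named after their values were seen.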

Additional observations from a re-analysis of the deposited data

How the results depend on the processing

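Of the 10 genes, 6 were called higher in the injury effect (1644 of all genes higher, 1302 lower), 3 with DESeq2 (1357 and 1181), 4 without the replicate block (1558 and 1344), 0 with side as a further term (6 and 0, a loss of nearly all calls), and 3 to 8 when 1 pool was left out (475 to 2382 and 156 to 2287). None was called lower in any of these. Dusp1 and Junb kept their call in 9 of 10 alternatives and Arc in 8, the last losing it without the pool of day 7 (adjusted p = 0.0669, edgeR). Nr4a1 and Ier3 kept it in 4 and Egr1 in 3, and Egr1 was at -0.043 without the replicate block. For the time trend 0 to 1 genes were called when 1 pool was left out, the 1 being Dusp1 without day 7 (644 and 570 of all genes, against 0 and 0). Without day 3 it was 281 and 238 of all genes. Trend values changed sign without the replicate block for Fos (-0.046), Ier2 (-0.047) and Btg2 (-0.056), with no filter on low counts for Nr4a1 (-0.00055), without day 7 for Junb (0.053) and Egr1 (0.26), without day 3 for Nr4a1 (-0.0045) and without day 1 for Fos (-0.54), Fosb (-0.17), Ier2 (-0.24) and Nr4a1 (-0.26). Against the pool labelled no injury, Egr1 was the 1 contralateral gene called lower with no filter (276 and 422 of all genes, against 21 and 26), and likewise with left and right as 2 samples (188 and 184). Leaving out 1 library gave 0 to 1 such calls (13 to 447 and 3 to 507 of all genes), and log2 ranges that cross 0 for Fos (-0.20 to 0.32), Junb (-0.12 to 0.11), Dusp1 (-0.028 to 0.10), Ier2 (-0.17 to 0.13) and Btg2 (-0.021 to 0.30). On the injured side 1 gene was called higher with DESeq2 (Arc; 494 and 167 of all genes, against 19 and 4), 1 higher (Arc) and 1 lower (Fosb) with left and right as 2 samples (703 and 442), and 0 to 2 higher when 1 library was left out (0 to 1630 and 1 to 1518), with Nr4a1 between -0.033 and 0.088. The causes were not tested. Side ratios stayed within their counting intervals in all alternatives run. With 1 library per side and day, and Fosb at 13 to 44 reads, depth limits Fosb most.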
